A study of Sus scrofa with 4 samples.

Results

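Leptin is the hormone by which fat cells report the size of fat stores, and the genes described here are its own gene, the genes of its receptor and of receptor trafficking, an adaptor, and the inhibitors that switch the receptor off. They were picked by symbol from a table of 22309 pig (Sus scrofa) ovary genes: LEP, LEPR, LEPROT, LEPROTL1, SH2B1, SOCS1, SOCS2, SOCS3, CISH and PTPN1. Of these 10 names, 9 matched the symbol of a row, and all 9 passed the filter on low counts. SOCS2 matched none. One row was described in the table as SOCS2 but carried the symbol CRADD, the name of a death-domain adaptor gene that lies near SOCS2 in the RefSeq annotation of Sscrofa11.1. Its values are given separately as the row described as SOCS2, since it may hold reads of either gene.

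The 4 libraries came from poly(A)-enriched RNA of whole ovaries in diestrus, the luteal phase of the cycle. Leptin overexpression (2 libraries) was set against WT (2 libraries). The leptin overexpression sows were F2 offspring: cloned male offspring of the transgenic pig C013 were mated with Duroc/Landrace/Yorkshire sows, the F1 animals were crossed, and carriers were selected by PCR, qPCR and immunoblotting. All carriers therefore trace to 1 transgenic animal. Neither the promoter and coding sequence of the transgene nor the age of the sows is given in the labels or the design. They also leave unsaid whether each library stands for its own animal, so the spread behind each p-value is that between libraries and may be technical. In whole ovary, fewer cells of a type and less RNA per cell cannot be told apart.

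As background, leptin binds LEPR, a receptor of the cytokine class that carries the kinase JAK2. The activated receptor switches on STAT transcription factors, mainly STAT3, and STAT proteins induce SOCS3, which binds the receptor and JAK2 and ends the signal. PTPN1, a phosphatase also known as PTP1B, removes the phosphate from JAK2, and SH2B1 is an adaptor that increases JAK2 activity. In the ovary the receptor has been found on granulosa, theca and luteal cells, and other hormones and cytokines also induce the SOCS genes.

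Libraries held 16493113 to 16797511 counts. TMM factors, which correct for a few abundant genes taking a large share of a library, were 0.925 and 0.809 in leptin overexpression and 1.34 and 0.998 in WT. Over the 13937 genes tested, Pearson's r of log2 CPM was 0.945 within leptin overexpression, 0.928 within WT and 0.958 between leptin overexpression replicate 1 and WT replicate 2, with 0.875 to 0.913 for the other pairs (genes are not independent replicates). WT replicate 1 stood apart in its luteal and oocyte markers. The summed CPM of 6 luteal markers (STAR, HSD3B1, CYP11A1, PTGFR, LHCGR and SCARB1) was 41082 and 45028 in leptin overexpression and 19822 and 43764 in WT. STAR and HSD3B1, taken as the defining luteal genes, were present in every library and lowest in WT replicate 1, at 7022 and 6222 CPM. The 8 oocyte markers summed to 21.2 and 23.6 CPM in leptin overexpression and 139 and 23.1 CPM in WT. The 7 matched epithelial markers of ovary surface and oviduct summed to 6.4 and 68.5 CPM in leptin overexpression and 522 and 280.2 CPM in WT. Of these 7, 6 were lower in both leptin overexpression libraries, as were 22.9% of all tested genes. The exception, EPCAM, was at 2.55 and 57.1 CPM in leptin overexpression and 33.8 and 7.76 CPM in WT. The genes are therefore also described with 1 library left out.

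The comparison of the genotypes asks whether the hormone's receptor and its inhibitors differ where leptin is overexpressed. LEP had 179 counts over the leptin overexpression libraries and 3 over the WT libraries, while the other 8 genes had log2 fold changes, leptin overexpression minus WT, of -0.58 to 1.10. LEP, the overexpressed gene, passed the filter on low counts only through the leptin overexpression libraries, whose animals were selected as carriers. Its direction was therefore largely set in advance, and the counts over the 9 genes include it. None of the 9 genes passed an adjusted p of 0.05 over all genes (edgeR's quasi-likelihood test), against 0.0287% of all tested genes called higher and 0% called lower. At an unadjusted p under 0.05, 1 of the 9 was higher (LEP), where 4.04% of all tested genes were, and 0 were lower, where 5.32% were. DESeq2 called 1 of the 9 higher, again LEP (0.718% of all genes), and 0 lower (1.47%), and limma-voom called 0 (0.00718% of all genes higher, 0% lower). The log2 fold change was above 0 for 7 of the 9 genes (49.3% of all tested genes) and below 0 for 2, SH2B1 and PTPN1 (50.7%). Its median was 0.35 over the 9 and -0.012 over all tested genes. The smallest p that an exact permutation test of 2 against 2 libraries allows is 0.333 (two-sided), so single genes were judged only by the fit across all genes.

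**Figure D1:**
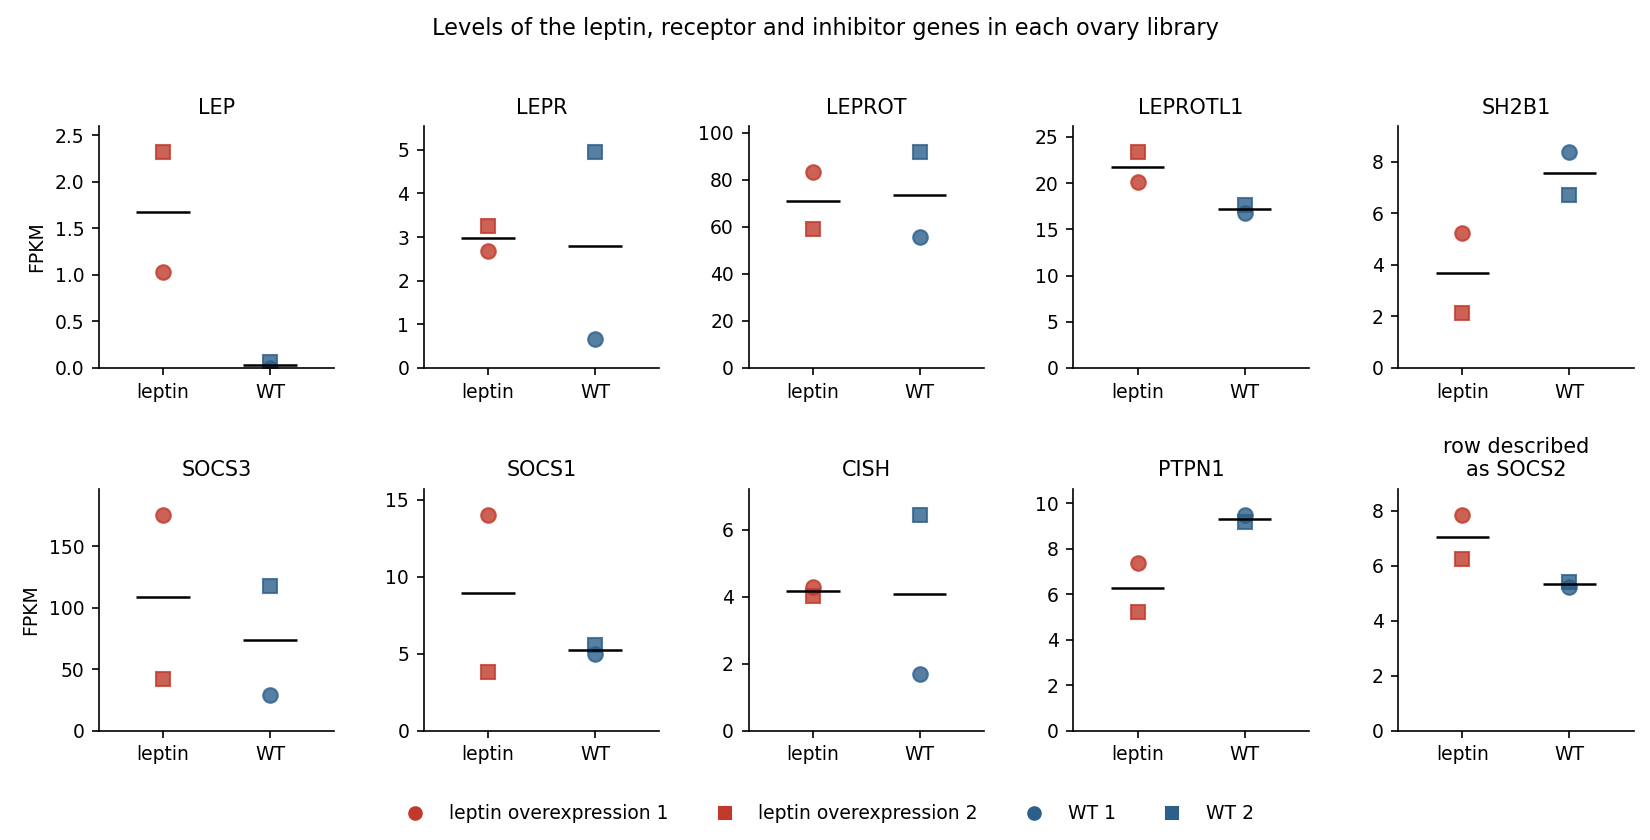
Level in FPKM of each gene in each library, leptin overexpression (red) left of WT (blue); circles are replicate 1, squares replicate 2 and bars the means. LEP was at 1.03 and 2.32 FPKM in leptin overexpression and at 0 and 0.06 FPKM in WT, while the 2 WT libraries stood far apart for LEPR, SOCS3 and CISH.

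Per transcript length, the genes spanned a wide range of levels. SOCS3 had the highest mean over the 4 libraries, 91 FPKM (29.45 to 175.41), followed by LEPROT at 72.5 FPKM (55.59 to 91.93). These 2 ranges overlapped, and both lay above that of LEPROTL1, at 19.5 FPKM (16.81 to 23.38). PTPN1 (7.81), SOCS1 (7.11), the row described as SOCS2 (6.19), SH2B1 (5.62) and CISH (4.12 FPKM) came next, with ranges that overlapped from each to the next and that all lay below that of LEPROTL1. LEPR, at 2.89 FPKM (0.66 to 4.95), overlapped with CISH. The hormone gene itself was lowest, at 0.852 FPKM (0 to 2.32), so that even in leptin overexpression the level of LEP per length was below that of its receptor in the same library.

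LEP (ENSSSCG00000040464) had 55 and 124 counts in the leptin overexpression libraries and 0 and 3 counts in the WT libraries. Scaled to library size these were 3.59 CPM (95% Poisson interval 2.7 to 4.67) and 9.26 CPM (7.7 to 11) in leptin overexpression, against 0 CPM (0 to 0.167) and 0.179 CPM (0.0369 to 0.523) in WT; the intervals cover counting error only. The groups did not overlap, and both leptin overexpression libraries lay above the floor of 3 counts, 0.196 and 0.224 CPM there. The ratio of pooled counts per scaled library size was 80.7 (95% counting interval 27.2 to 395). The log2 fold change of LEP was 6.18 (SE 1.19; edgeR adjusted p = 0.198), and its unadjusted p ranked 43 of all genes tested. With DESeq2 the adjusted p was 3.78e-05 (log2 fold change 6.30). The animals were selected as carriers, and LEP passed the filter on low counts only through their libraries. Tests of LEP are therefore no separate evidence of its direction, which was largely set in advance. The edgeR test of LEP passed without WT replicate 1 (5.07, adjusted p = 0.00232) and without WT replicate 2 (9.74, adjusted p = 1.04e-05, against 0 counts in WT), and did not pass without leptin overexpression replicate 1 (6.71, adjusted p = 0.179) or 2 (5.34, adjusted p = 1). The level of LEP differed within leptin overexpression as well, replicate 2 being 2.58 times replicate 1 (95% counting interval 1.86 to 3.61).

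The LEP message was scarce. It exceeded 27.6% and 43.6% of the genes with an FPKM above 0 in leptin overexpression replicates 1 and 2. Reads were counted on the pig gene; a transgene with another coding sequence could be counted in part only. LEP is normally a gene of fat cells, so the adipocyte markers were set beside it. Of 14 markers 13 matched a row. Their summed CPM was 288 and 232 in leptin overexpression and 90.1 and 166 in WT, and the sum followed LPL, a lipase that many cells other than fat cells also make (225 and 189 CPM in leptin overexpression, 25 and 80.3 CPM in WT). Of the 8 markers tested, none passed with edgeR, and the median log2 fold change was -0.67. At an unadjusted p under 0.05 (edgeR), 1 was higher and 2 were lower, against 4.04% and 5.32% of all tested genes. DESeq2 called 2, against 0.718% of all tested genes called higher and 1.47% called lower. LPL alone was higher in both leptin overexpression libraries, as were 22.2% of all tested genes, and 4 were lower in both, as were 22.9%. Among those 4, FABP4, a fatty acid carrier also made by other cells, was at 0.588 and 0.822 CPM in leptin overexpression and 12.7 and 2.8 CPM in WT, and CFD (adipsin) at 19 and 9.94 CPM in leptin overexpression and 32.2 and 29.5 CPM in WT. Of the defining fat cell genes, ADIPOQ (adiponectin) was at 0.0653 and 0 CPM in leptin overexpression and 0.0454 and 0 CPM in WT, CIDEC (a lipid droplet protein) at 0.131 and 0 CPM in leptin overexpression and 0.272 and 0.0597 CPM in WT, and PLIN1 (perilipin, which coats the droplet) at 0.392 and 0 CPM in leptin overexpression and 0.408 and 0.418 CPM in WT. These 3 were at 0.418 CPM or less in every library. The part of fat cells in the level of LEP was not tested. LIPE, a lipase also used in steroid-making cells, was at 16.5 and 13.4 CPM in leptin overexpression and 7.21 and 15.3 CPM in WT.

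Transcripts of the leptin receptor, LEPR (ENSSSCG00000025188), stood at 15.5 and 21.5 CPM in leptin overexpression and at 2.63 and 26.5 CPM in WT. Both leptin overexpression values fell between those of the WT libraries, which lay 10.1-fold apart. That gap was larger than the gap between WT libraries for 99.3% of all tested genes. The log2 fold change was 0.35 (SE 0.94; edgeR adjusted p = 0.91), and 1 WT library set its sign. Without WT replicate 1 it was -0.54 (adjusted p = 0.997); in that fit 1 of the 9 genes, LEP, was called higher, against 0.395% of all genes. Without WT replicate 2 it was 2.77 and passed (adjusted p = 0.0188). In that fit 3 of the 9 genes, LEP, LEPR and SOCS3, were called higher, against 1.71% of all genes. Fits without 1 WT library hold none of the spread within WT.

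**Figure D2:**
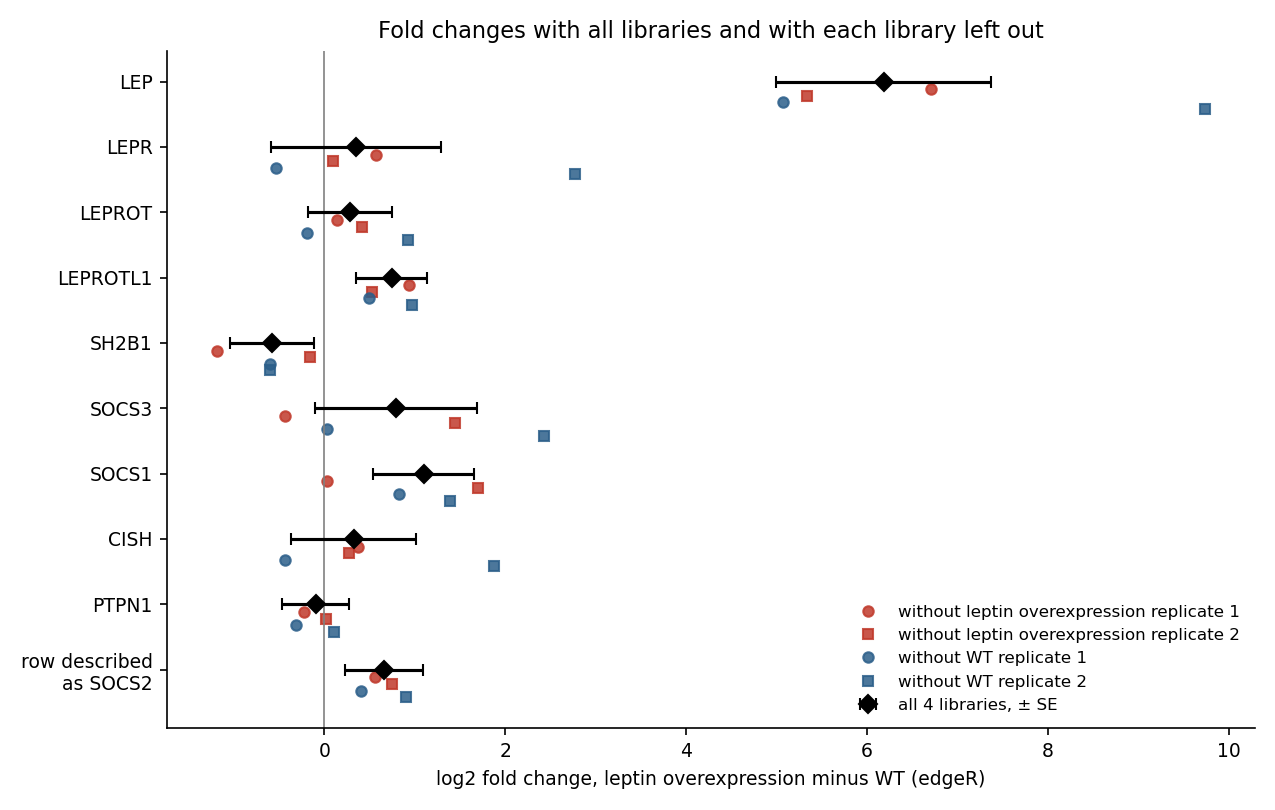
Log2 fold change of each gene, leptin overexpression minus WT, by edgeR: black diamonds with bars are all 4 libraries ± SE, and coloured marks leave out 1 library each. LEP ranged from 5.07 to 9.74, whereas LEPR, LEPROT, SOCS3, CISH and PTPN1 lay on both sides of 0.

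In WT replicate 1, where LEPR was low, 5 of 6 luteal markers were also lowest (summed CPM as above), as were 28.3% of all tested genes. Granulosa markers, 10 of 10 matched, summed to 1966 and 1651 CPM in leptin overexpression and 1685 and 1740.2 CPM in WT. Theca markers, 6 of 6 matched, summed to 2534 and 1442 CPM in leptin overexpression and 1991 and 2734 CPM in WT. Of these, 2 granulosa markers and 1 theca marker were lowest in WT replicate 1. CYP19A1, a granulosa marker, was at 197 and 161 CPM in leptin overexpression and 9.21 and 197 CPM in WT. CYP17A1, a theca marker, was at 836 and 337 CPM in leptin overexpression and 157 and 1700.5 CPM in WT. Other defining genes, FOXL2, AMH and FSHR for granulosa and INSL3 for theca, were not lowest in WT replicate 1. INSL3 was at 7.38 and 33.5 CPM in leptin overexpression and 22.3 and 25.4 CPM in WT. The part of luteal, granulosa and theca cells in the receptor's low value was not tested. In people LEPROT shares its first exons with LEPR but encodes a separate small membrane protein that limits how much receptor reaches the cell surface; in the RefSeq annotation of Sscrofa11.1 the pig genes are direct neighbours whose intervals do not overlap. LEPROT (ENSSSCG00000003806) was at 191 and 157 CPM in leptin overexpression and at 89.2 and 196 CPM in WT, again with both leptin overexpression values inside the WT range. Its log2 fold change was 0.28 (SE 0.47; edgeR adjusted p = 0.846). Leaving out WT replicate 1 gave -0.19 and leaving out WT replicate 2 gave 0.93, and on total counts alone it was -0.057, where the median of all genes was -0.43. The ratio of LEPR to LEPROT in FPKM, which does not depend on library scaling, was 0.0323 and 0.0552 in leptin overexpression and 0.0119 and 0.0538 in WT. WT replicate 1 was thus low in receptor also relative to its neighbour, with the other 3 libraries at 0.0323 or above.

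LEPROTL1 (ENSSSCG00000038085), a relative of LEPROT with a like role in receptor traffic, was at 119 and 158 CPM in leptin overexpression and at 68.7 and 96.7 CPM in WT. Here the groups did not overlap, on CPM or on FPKM (20.15 and 23.38 FPKM in leptin overexpression, 16.81 and 17.68 FPKM in WT). For LEPROTL1 the log2 fold change was 0.74 (SE 0.39; edgeR adjusted p = 0.575), and it stayed above 0 in all 15 alternative fits. It was 0.33 on total counts and 0.32 on log2(FPKM + 1), fits that also moved the median of all genes below 0 (-0.43 and -0.30), and it was 0.50 to 0.97 with 1 library left out. LEPROTL1 increased from library to library in the order in which the TMM factors decreased, and the part of that shift in its difference was not tested. Of the 9 genes, 2 (LEP and LEPROTL1) had CPM values higher in both leptin overexpression libraries than in either WT library, as had 22.2% of all tested genes, and 1 (SH2B1) had lower ones, as had 22.9%.

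SH2B1 (ENSSSCG00000007804), the adaptor that increases JAK2 activity, was the member with the lowest fold change. It was at 16.1 and 7.84 CPM in leptin overexpression and at 17.8 and 18 CPM in WT. The WT libraries were nearly equal, and leptin overexpression replicate 2 was the low one. SH2B1 had a log2 fold change of -0.58 (SE 0.46; edgeR adjusted p = 0.672). Without leptin overexpression replicate 2 it was -0.16, and without leptin overexpression replicate 1 it was -1.19 (adjusted p = 0.231); it was below 0 in all 15 alternative fits.

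**Figure D3:**
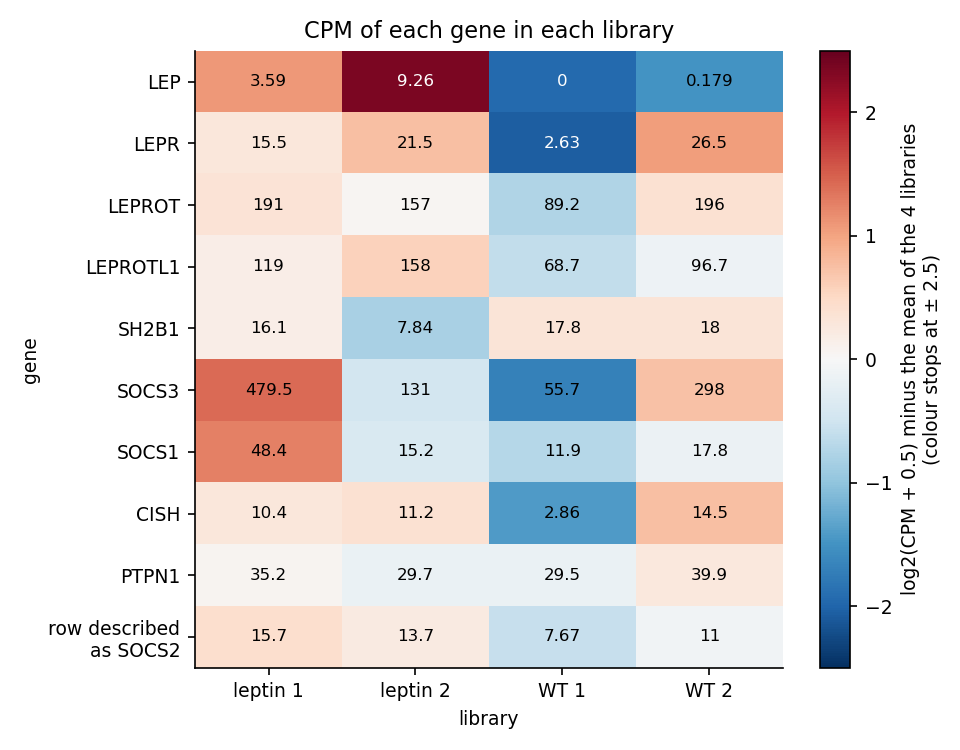
TMM-scaled CPM of each gene (rows) in each library (columns), printed in the cells; colour is log2(CPM + 0.5) minus the gene's mean over the 4 libraries. SOCS3 and SOCS1 were highest in leptin overexpression replicate 1, and 8 of the 9 genes, all but SH2B1, were lowest in WT replicate 1.

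SOCS3 (ENSSSCG00000036956), the main inhibitor that leptin induces through STAT3, was at 479.5 and 131 CPM in leptin overexpression and at 55.7 and 298 CPM in WT. The groups interleaved: leptin overexpression replicate 1 was highest, WT replicate 2 next, then leptin overexpression replicate 2, and WT replicate 1 lowest. Its libraries lay 3.67-fold apart within leptin overexpression and 5.34-fold apart within WT, wider than those of 97.9% and 98% of tested genes. The log2 fold change of SOCS3 was 0.79 (SE 0.90; edgeR adjusted p = 0.773). It was -0.44 without leptin overexpression replicate 1 and 1.44 without replicate 2 of that group. Without WT replicate 1 it was 0.027, and without WT replicate 2 it was 2.43 and passed (adjusted p = 0.00918).

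The same alternation of libraries was present in FOS and JUNB, immediate-early transcription factors that many stimuli induce quickly and briefly. FOS was at 613 and 19.8 CPM in leptin overexpression and at 22.1 and 219.8 CPM in WT. JUNB was at 148 and 46.2 CPM in leptin overexpression and at 45.2 and 109 CPM in WT, the order of libraries that SOCS3 had. Markers of endothelium, 7 of 7 matched, summed to 881 and 418 CPM in leptin overexpression and to 713 and 1296 CPM in WT, and those of macrophages, 5 of 5 matched, to 139 and 132 CPM in leptin overexpression and 195 and 187 CPM in WT. The part of these in the spread of SOCS3 was not tested.

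**Figure D4:**
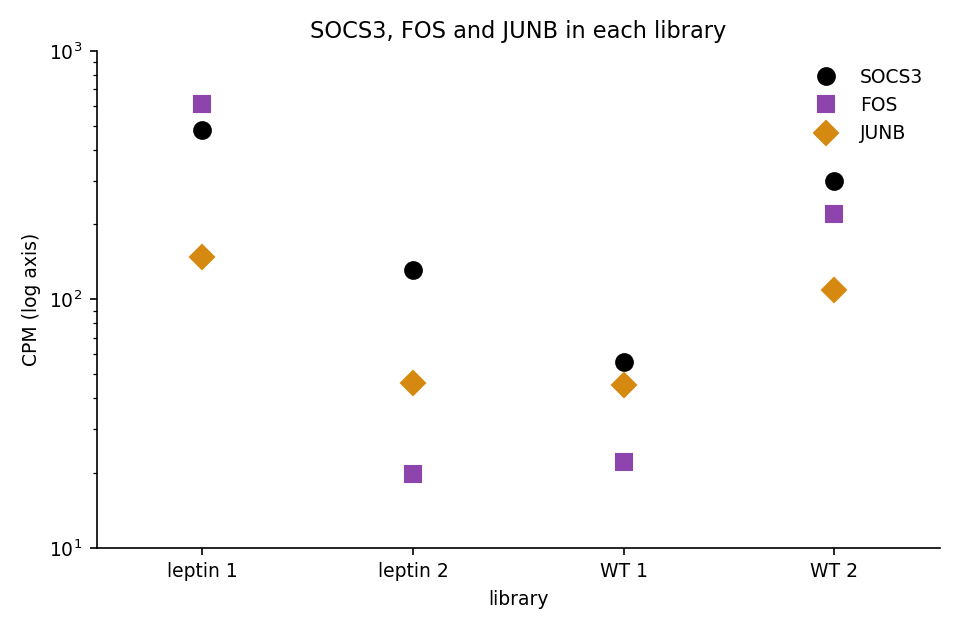
CPM on a log axis of SOCS3, FOS and JUNB in each library. All 3 were highest in leptin overexpression replicate 1 and next in WT replicate 2, with SOCS3 at 479.5 and 298 CPM there.

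SOCS1 (ENSSSCG00000027855), a close relative of SOCS3 best known for limiting interferon signals, was at 48.4 and 15.2 CPM in leptin overexpression and at 11.9 and 17.8 CPM in WT. Leptin overexpression replicate 1 was high, and the other 3 libraries lay between 11.9 and 17.8 CPM. With all libraries SOCS1 had a log2 fold change of 1.10 (SE 0.56; edgeR adjusted p = 0.569), the largest among the genes other than LEP. It was 0.030 without leptin overexpression replicate 1 and 1.70 without replicate 2 of that group, so the difference rested on that library. T cell markers, 5 of 5 matched, summed to 7.18 and 4.33 CPM in leptin overexpression and 11.7 and 20.8 CPM in WT, and their part in the level of SOCS1 was not tested.

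CISH (ENSSSCG00000040581), the family member typically induced through STAT5 by growth hormone and prolactin, was at 10.4 and 11.2 CPM in leptin overexpression and at 2.86 and 14.5 CPM in WT. The leptin overexpression libraries were nearly equal and lay inside the WT range, whose ends were 5.07-fold apart. CISH had a log2 fold change of 0.32 (SE 0.69; edgeR adjusted p = 0.88), with -0.44 without WT replicate 1 and 1.88 without WT replicate 2 (adjusted p = 0.218). The FPKM ratio of SOCS3 to CISH was 40.8 and 10.4 in leptin overexpression, and nearly equal in the WT libraries, at 17.3 and 18.2, although each gene varied within WT. The row described as SOCS2 (ENSSSCG00000000910) was at 15.7 and 13.7 CPM in leptin overexpression and at 7.67 and 11 CPM in WT. Its CPM was higher in both leptin overexpression libraries than in either WT library, as was that of 22.2% of all tested genes. The log2 fold change of this row was 0.66 (SE 0.43, edgeR adjusted p = 0.618), with 0.40 to 0.90 when 1 library was left out.

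PTPN1 (ENSSSCG00000007469) had the smallest ratio of highest to lowest CPM among these genes, at 35.2 and 29.7 CPM in leptin overexpression and at 29.5 and 39.9 CPM in WT. PTPN1 had a log2 fold change of -0.096 (SE 0.37; edgeR adjusted p = 0.938). The deposited FPKM of PTPN1 was lower in both leptin overexpression libraries, at 7.37 and 5.22 FPKM, against 9.49 and 9.16 FPKM in WT. On FPKM, which is not TMM-scaled, 2 of the 9 genes (SH2B1 and PTPN1) were lower in both leptin overexpression libraries, as were 39.7% of all tested genes, and 2 (LEP and LEPROTL1) were higher, as were 6.85%.

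WT replicate 1 had the lowest CPM of 8 of the 9 genes, all but SH2B1, where 28.3% of all tested genes were lowest in that library. On FPKM it had the lowest value of 6 of the 9 (LEP, LEPR, LEPROT, LEPROTL1, SOCS3 and CISH), where 10.4% of all tested genes were. PTPN1 was at 29.5 CPM there and at 29.7 CPM in leptin overexpression replicate 2, a gap within counting error. LEP had 0 counts there and 3 counts in WT replicate 2, with overlapping counting intervals (0 to 0.167 CPM and 0.0369 to 0.523 CPM).

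No gene of the 4 further lists of this pathway passed the threshold with edgeR and all libraries. Of 29 genes downstream of the receptor (JAK2, STATs, insulin receptor substrates, PI3 kinase, AKT, MAP kinases and their partners), 28 were tested; 13 had log2 fold changes above 0 and 15 below, with a median of -0.027 against -0.012 over all tested genes. None passed with edgeR, and DESeq2 and limma-voom called 0 (DESeq2 called 0.718% of all tested genes higher and 1.47% lower). None had an unadjusted p under 0.05 (edgeR), where 4.04% of all tested genes were higher and 5.32% lower. STAT3, the main transcription factor of the receptor, was at 339 and 275 CPM in leptin overexpression and at 237 and 334 CPM in WT (log2 fold change 0.11, SE 0.43; edgeR adjusted p = 0.94). The largest differences on this list were those of RPS6KB1, a kinase of ribosomal protein S6, at 22.3 and 56.1 CPM in leptin overexpression and 20.1 and 16.9 CPM in WT (log2 fold change 1.08, SE 0.48; edgeR adjusted p = 0.539), and of MTOR, the kinase upstream of it, at 68.5 and 30.3 CPM in leptin overexpression and 87.2 and 68.6 CPM in WT (log2 fold change -0.66, SE 0.45; edgeR adjusted p = 0.629).

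Of 16 other inhibitors (the remaining SOCS genes, PIAS genes, phosphatases, SH2B relatives and CBL ligases) all were tested, with 9 above and 7 below 0 and a median log2 fold change of 0.044. With edgeR 0 passed, and with DESeq2 and limma-voom 0 (DESeq2 called 0.718% of all tested genes higher and 1.47% lower). At an unadjusted p under 0.05 (edgeR), 1 (SOCS6) was higher, against 4.04% of all tested genes, and 0 were lower, against 5.32%. SOCS6 was at 27.6 and 50 CPM in leptin overexpression and at 19.7 and 19 CPM in WT (log2 fold change 1.00, SE 0.41; edgeR adjusted p = 0.519), and SOCS4 at 17.7 and 39.1 CPM in leptin overexpression and 14 and 14.4 CPM in WT (log2 fold change 1.00, SE 0.46; edgeR adjusted p = 0.551). Unlike SOCS1 and SOCS3, these 2 were highest in leptin overexpression replicate 2. SH2B3, an inhibitory relative of SH2B1, was at 75.9 and 52.5 CPM in leptin overexpression and 60.7 and 89.8 CPM in WT, and PIAS2, which binds STAT proteins, at 59 and 73.5 CPM in leptin overexpression and 47.2 and 66 CPM in WT.

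**Figure D5:**
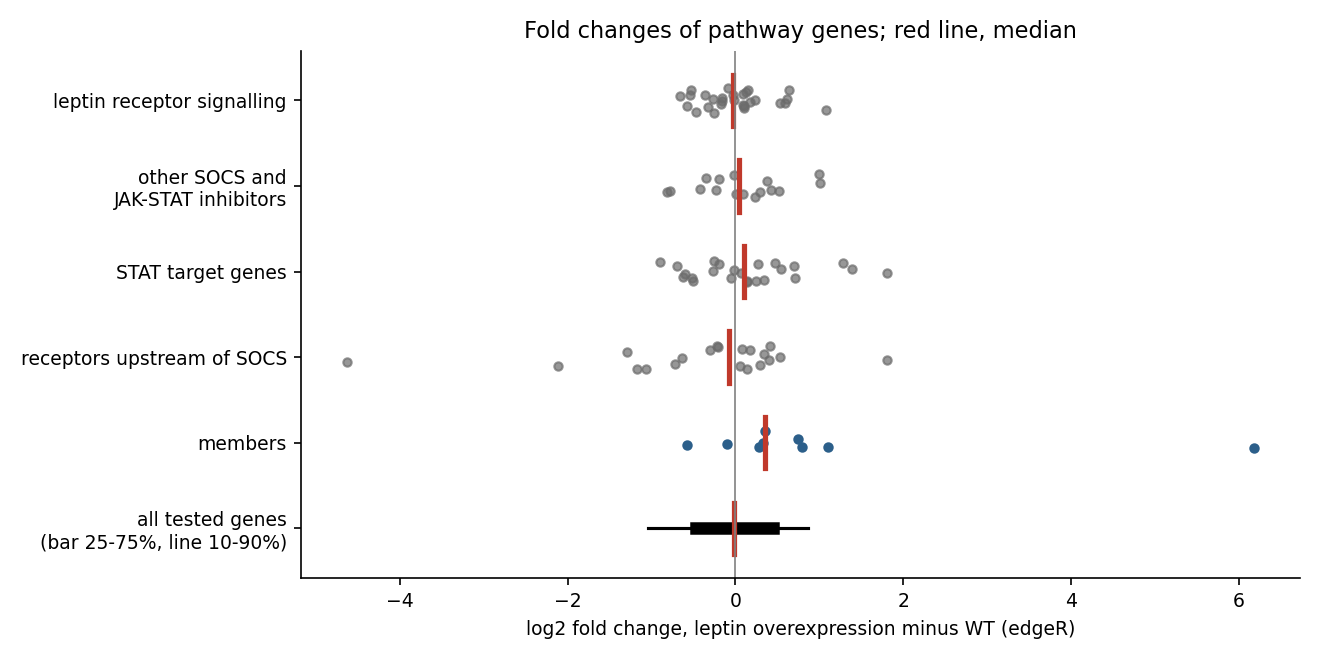
Log2 fold change, leptin overexpression minus WT (edgeR), of the tested genes of each list (grey), of the 9 member genes (blue) and of all tested genes (black), with medians in red. With all libraries the medians of the 4 lists lay between -0.076 and 0.10, against -0.012 for all genes.

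Of 25 genes that STAT proteins are known to induce in other tissues, 24 were tested, 13 above and 11 below 0, with a median log2 fold change of 0.10. That median was -0.39 without leptin overexpression replicate 1 and 0.27 without WT replicate 2, so its sign rested on single libraries. With edgeR 0 passed, and DESeq2 and limma-voom called 0 (DESeq2 called 0.718% of all tested genes higher and 1.47% lower). At an unadjusted p under 0.05 (edgeR), 1 (IL6ST) was higher, against 4.04% of all tested genes, and 0 were lower, against 5.32%. TIMP1, a metalloproteinase inhibitor abundant in luteal tissue, was at 8480.4 and 8105 CPM in leptin overexpression and at 4309.7 and 9676 CPM in WT, and A2M, a broad protease inhibitor, at 1836 and 825 CPM in leptin overexpression and 460.4 and 1755 CPM in WT. Both were lowest in WT replicate 1. IL6ST, the gp130 receptor subunit shared by the interleukin-6 family, was at 232 and 769 CPM in leptin overexpression and at 95.4 and 190.4 CPM in WT (log2 fold change 1.81, SE 0.64; edgeR adjusted p = 0.437). IL6ST passed without WT replicate 2 (2.34, adjusted p = 0.015). FOS had the next largest log2 fold change, 1.39 (SE 1.77; edgeR adjusted p = 0.807).

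Of 21 other receptors whose signals induce SOCS genes, 20 were tested, 10 above and 10 below 0, with a median log2 fold change of -0.076. EdgeR called 0, and 6 had an unadjusted p under 0.05 (1 higher, against 4.04% of all tested genes, and 5 lower, against 5.32%). The higher one was IL6ST, which is also on the list of STAT target genes and is the same result as there. DESeq2 called 2 (IL2RG and CSF3R, both lower, against 1.47%) and limma-voom 0. IL13RA1, a receptor chain for interleukin-13, was at 165 and 157 CPM in leptin overexpression and at 139 and 172 CPM in WT. IL2RG, the common chain of lymphocyte cytokine receptors, had the largest difference among those averaging at least 5 CPM, at 2.94 and 2.47 CPM in leptin overexpression and 13.5 and 10 CPM in WT (log2 fold change -2.12, SE 0.51; edgeR adjusted p = 0.231). IL2RG passed when WT replicate 2 was left out (-2.35, adjusted p = 0.0333), as did CSF3R (-5.55, adjusted p = 1.01e-07), where 2.61% of all genes were called lower. T cell markers were lower in the same libraries (summed CPM as given with SOCS1), and their part in it was not tested.

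Genes with profiles most like those of LEP and LEPR were ranked by the root mean square difference in log2(CPM + 0.5) over the 4 libraries, each profile centred on its mean. Nearest to LEP were MRO (0.23), a row with the symbol ZFP90 that the table describes as a relative of zinc finger protein 37 (0.24), and CRISP3, a secreted cysteine-rich protein (0.25). MRO was at 580.4 and 1116 CPM in leptin overexpression and at 78 and 120.0 CPM in WT (log2 fold change 3.10, SE 0.54; edgeR adjusted p = 0.197). The ZFP90 row was at 2.48 and 7.17 CPM in leptin overexpression and at 0.0454 and 0 CPM in WT, and CRISP3 at 3.98 and 6.5 CPM in leptin overexpression and 0 and 0.239 CPM in WT, both close to the floor in WT. The ZFP90 row and CRISP3 passed the filter on low counts only through the leptin overexpression libraries. All 3 were higher in leptin overexpression than in WT, and higher in leptin overexpression replicate 2 than in replicate 1, as LEP was. The ranking itself selects for both likenesses, so the fold changes of these genes are no separate test.

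Nearest to LEPR were KBTBD8, an adaptor of a ubiquitin ligase (0.11), ELOVL4, which lengthens very long fatty acids (0.20), and a row with the symbol PAQR9 that the table describes as procollagen C-endopeptidase enhancer 2 (0.21). KBTBD8 was at 13.1 and 17 CPM in leptin overexpression and at 1.81 and 18.3 CPM in WT. ELOVL4 was at 32.6 and 36.8 CPM in leptin overexpression and at 6.67 and 43.6 CPM in WT, and the PAQR9 row at 1087 and 1516 CPM in leptin overexpression and 193 and 1301 CPM in WT. Like LEPR, the 3 were low in WT replicate 1 alone, which the ranking likewise selects for.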

How the data were processed

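Per the labels' protocols, mRNA was enriched with oligo(dT) beads, made into libraries with a NEBNext Ultra RNA kit and sequenced on an Illumina NovaSeq. No source used here says whether strand was used in counting, so reads of antisense or overlapping genes are uncertain. Per the file headers, the deposited table holds expected counts per gene (12.7% to 15.5% per library not whole; not scaled to depth). Its FPKM values were scaled to transcript length and library size by the authors, per the file headers. Among the tools in the submitters' processing notes, listed there with no roles, are RSEM, HISAT2, Bowtie2 2.2.8, StringTie 1.3.1 and fastp 0.18.0. The genome build is not given there, and no coordinates are reported. Columns named Ctrl were matched to the WT samples by number.

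Counts were rounded, filtered with filterByExpr (13937 of 22309 genes kept), TMM-scaled and tested by edgeR's quasi-likelihood method with genotype as the only term, leaving 2 residual degrees of freedom (R 4.3.3 with edgeR 4.0.16, DESeq2 1.42.0 and limma 3.58.1). P-values were Benjamini-Hochberg adjusted over all tested genes, with a threshold of 0.05. SE was taken as |log2 fold change| over the root of F. All CPM are TMM-scaled, and 3 counts, the floor, come to 0.136 to 0.224 CPM. Members and lists were chosen with earlier results of these data known. Named genes were the members; in each list, genes past the threshold or else the 2 of highest mean CPM and the 2 of largest absolute fold change with a mean of at least 5 CPM; and the 3 profiles nearest to LEP and to LEPR. JUNB, LPL, FABP4, CFD, CSF3R, SOCS2's candidate row and the marker genes were named after their values were seen. List genes were matched by symbol in the table, then in the reference tables. Alternatives were other scalings, filters, tools and pseudocounts, leaving out single libraries, and a block for the replicate number. One gene that this rule names is not reported here.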

Additional observations from a re-analysis of the deposited data

How the results depend on the processing

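Directions of LEP, LEPROTL1, SH2B1, SOCS1 and the row described as SOCS2 held in all 15 alternatives; the planned SOCS2 result could not be computed because no row carried that symbol. The number of genes called, 4 higher and 0 lower with all libraries, was 7 and 4 with upper-quartile factors, 73 and 478 on total counts, 84 and 168 with no filter on low counts, 100 and 205 with DESeq2, 1 and 0 with limma-voom, 70 and 256 with limma-trend on log2(FPKM + 1), 105 and 413 on log2(FPKM + 0.1), 0 and 0 on log2(FPKM + 1) with no filter, and 0 to 239 higher and 0 to 364 lower with 1 library left out; the cause was not tested. With the replicate number as a block it was 11 and 12, and LEP had adjusted p = 0.0707. The numbers do not pair the samples by the labels, and same-numbered libraries did not deviate together (correlation over genes -0.0988). LEP, whose direction was largely set in advance, passed with a log2 fold change of 5.80 on total counts, 6.19 with no filter and 6.30 with DESeq2. It also passed with 1.33 on log2(FPKM + 1) and 3.71 on log2(FPKM + 0.1). With 1 library left out LEP ranged from 5.07 to 9.74. Total counts moved the median of all genes to -0.43, log2(FPKM + 1) to -0.30 (-0.20 with no filter), log2(FPKM + 0.1) to -0.40 and upper-quartile factors to -0.11. LEPROT changed sign on total counts (-0.057) and in the 3 FPKM fits (-0.028 in each), and was 0.18 to 0.38 above that median. Leaving out 1 library gave the other changes of sign, with ranges of -0.54 to 2.77 for LEPR, -0.19 to 0.93 for LEPROT and -0.44 to 1.88 for CISH (each negative without WT replicate 1), -0.44 to 2.43 for SOCS3 (negative without leptin overexpression replicate 1), and -0.32 to 0.10 for PTPN1 (positive without WT replicate 2, and 0.020 without leptin overexpression replicate 2). The list medians ranged from -0.13 to 0.079 (leptin receptor signalling), -0.12 to 0.10 (other inhibitors), -0.39 to 0.27 (STAT targets) and -0.19 to -0.062 (receptors). A fit with 1 library in a group takes its spread from the other group alone. Depth limits LEP in WT, which rests on 3 counts.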

Other observations

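Of the 20 tested receptors upstream of SOCS genes, 9 had lower and 5 higher CPM in both leptin overexpression libraries than in either WT library, against 22.9% and 22.2% of all tested genes. Those named here were chosen after their values were seen. IL10RA, the ligand-binding chain of the interleukin-10 receptor, was at 12.1 and 15.7 CPM in leptin overexpression and at 38.5 and 29.8 CPM in WT (log2 fold change -1.29, SE 0.39; edgeR adjusted p = 0.347). CSF3R, the receptor of the neutrophil growth factor G-CSF, was at 0.522 and 0.0747 CPM in leptin overexpression and at 14.4 and 1.01 CPM in WT, most of it in WT replicate 1. IL6R was at 4.57 and 3.96 CPM in leptin overexpression and at 10.9 and 8.35 CPM in WT, against the direction of its partner IL6ST. None of these passed over all genes by edgeR; CSF3R passed by DESeq2 (adjusted p = 0.0064). IL10RB, the second chain of the interleukin-10 receptor, was at 28.8 and 35.8 CPM in leptin overexpression and at 19.7 and 25.1 CPM in WT, opposite to IL10RA. B and plasma cell markers, 5 of 5 matched, summed to 18.1 and 25.4 CPM in leptin overexpression and to 33.7 and 63.3 CPM in WT.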
